A study of Drosophila melanogaster with 16 samples.

Results

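RNA polymerase occupancy in the *Drosophila* wing imaginal disc was described from the 1568 significant peaks of RNA Pol Targeted DamID (TaDa). The members are every peak of that list, as the authors called them at an FDR of 1%. They are 1568 of the 3519 peaks in the lists used here, the other 1951 being Myc peaks that serve only for comparison. The peaks covered 3.11 Mb, or 2.33% of the bases of chromosome arms X, 2L, 2R, 3L, 3R and 4.

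In eukaryotic nuclei, Pol I transcribes the repeated rDNA into the large rRNA precursor, Pol II transcribes protein-coding genes and most long and small non-coding RNAs, and Pol III transcribes tRNA, 5S rRNA and a few other short RNAs. The enzymes share several small subunits. The subunit profiled here, Polr2F (also called RpII18), is among the shared ones, so a peak does not say which enzyme was present and the RNA class underneath is read from the annotation. TaDa uses a protein fused to Dam, the DNA adenine methylase of bacteria. The fusion methylates the adenine of nearby GATC sites, and methylated fragments are recovered and sequenced. The third instar wing disc is an epithelial sac of dividing cells that gives rise to the adult wing and notum, and demand for ribosomes and tRNA is high in such growing tissue.

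Female larvae of sdGAL4; tsGAL80 carried a UAS transgene for Dam fused to the polymerase subunit (Pol-Dam, 3 samples), for Dam fused to Myc (3 samples) or to Psi (3 samples, whose list is not used here), or for Dam alone (7 samples). The description label of the 3 Pol-Dam samples reads Myc RNAi, which goes against their titles and the study's methods, and the titles were followed. The driver *scalloped*-GAL4 is active in wing disc cells and temperature-sensitive GAL80 held it off until induction, a set-up that every group shared, controls included. Eggs were collected for at most 4 h at 25°C, larvae were raised at 18°C over 7 days, and expression was then switched on by 24 h at 29°C. The 3 Pol-Dam samples were set against Dam-only samples 1, 6 and 7, and the Myc samples against Dam-only samples 3, 4 and 5.

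The authors averaged the 3 RNA Pol replicates before peaks were called, so no value below has a replicate error, no test over samples could be made, and the read depth behind a peak is unknown. Each peak carries a score from the authors' peak caller, which ranks peaks within this list and has no stated formula, and an FDR. Scores ran from 0.76 to 2.87 with a median of 1.24, and 1004 peaks had an FDR below 0.001. In a dissected disc, occupancy in fewer cells and weaker occupancy in each cell cannot be told apart. Of 9 wing disc marker genes, 5 lay within 1 kb of a peak, namely *sd*, *vg*, *nub*, *tsh* and *hth*, and *ap*, *ci*, *en* and *wg* did not. Markers of other cells gave 3 of 9 for myoblasts and muscle (*kirre*, *Mef2* and *twi*), 1 of 6 for neurons (*elav*), 1 of 3 for trachea (*trh*), 1 of 5 for the germ line (*vas*, in a peak shared with *TfIIS*) and 1 of 3 for male dosage compensation (*lncRNA:roX2*, in a peak shared with *nod*). No marker of haemocytes (6 genes), fat body (5) or photoreceptors (6) lay within 1 kb of a peak. Over all protein-coding genes the share was 13.6%, and over the longest of 5 equal groups by length 29.9%, while the median length was 15.2 kb for the wing disc markers and 22.2 kb for the muscle markers. What part other cell types had in the list was not tested.

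The sequences below carry the results on Pol III genes, since tRNA genes were the RNA class most often under a peak. They come from the RefSeq assembly of release 6 of the genome and are written 5′ to 3′ on the transcribed strand. Capitals mark the letters GTTCNANNC of the B box, the internal promoter element of tRNA genes that transcription factor TFIIIC contacts. The number of identical genes in the genome and the number within 1 kb of a peak are given with each family below.
tRNA:Gln-CTG-2-2 (chr2L:2009155-2009226): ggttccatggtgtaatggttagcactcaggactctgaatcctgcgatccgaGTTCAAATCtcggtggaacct
tRNA:Cys-GCA-1-1 (chr3L:3095737-3095808): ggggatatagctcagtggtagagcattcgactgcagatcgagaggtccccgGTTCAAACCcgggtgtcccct
tRNA:Val-CAC-2-4 (chr3R:7475903-7475975): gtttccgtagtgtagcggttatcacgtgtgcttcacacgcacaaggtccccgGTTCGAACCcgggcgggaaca
tRNA:Ala-AGC-2-2 (chr3R:17619738-17619810): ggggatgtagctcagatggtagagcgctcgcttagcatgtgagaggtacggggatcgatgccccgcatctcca
tRNA:Asp-GTC-1-8 (chr2L:8683451-8683522): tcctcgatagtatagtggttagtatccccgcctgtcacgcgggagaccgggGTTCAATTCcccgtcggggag
tRNA:Glu-CTC-3-1 (chr3L:1379934-1380005): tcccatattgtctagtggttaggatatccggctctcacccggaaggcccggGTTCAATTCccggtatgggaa
tRNA:Pro-AGG-1-5 (chr3L:13211214-13211285): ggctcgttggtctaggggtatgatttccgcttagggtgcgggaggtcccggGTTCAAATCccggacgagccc

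Identical tRNA genes differed in whether they carried a peak. Among genes with the printed Gln-CTG-2 sequence, 4 of 5 lay within 1 kb of a peak, and for Cys-GCA-1 all 4 of 4 did. The figures were 8 of 11 for Ala-AGC-2, which has no match to the B box letters as written, and 3 of 6 for Val-CAC-2. They were 2 of 12 for Asp-GTC-1, 3 of 9 for Glu-CTC-3 and 0 of 7 for Pro-AGG-1, all of which do match. The printed families were chosen for high scores or many copies, and Pro-AGG-1 because no copy was near a peak. Families with a copy on 2R were left out, such as Arg-ACG-1 (9 of 10), Lys-CTT-1 (10 of 13) and Gly-GCC-1 (4 of 13). The printed families thus do not show how the B box letters relate to peaks. Over the 43 tRNA sequences present in 2 or more copies, 27 had some copies near a peak and some not, 5 had every copy near a peak and 11 had none. The B box letters were found in 93.1% of the 130 tRNA genes within 1 kb of a peak and in 93.8% of the 160 others, so the shares were nearly the same.

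The position of tRNA genes within peaks was measured from the peak centre. Of the 1568 peaks, 50 overlapped a tRNA gene, together 108 genes, and the middle of the nearest tRNA gene lay a median of 185.25 bp from the peak centre. In 29 of the 50 it lay within 250 bp. These peaks were taken for their overlap with a tRNA gene and most hold several, so a short distance is partly built in. Peaks have a median width of 1793 bp and both edges of all 1568 lay at a GATC site, with a median of 5 fragments per peak and a range of 3 to 17, so the position of a peak is known only to a fragment. The fragments of the genome had a median of 196 bp.

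Peaks that held several tRNA genes scored above other peaks, and those with 1 tRNA gene did not. The 50 peaks on tRNA genes had a median score of 1.58 and the 1518 others one of 1.235. The median was 1.22 for the 18 peaks on 1 tRNA gene, 1.44 for the 15 peaks on 2 and 1.68 for the 17 peaks on 3 or more. Grouping tRNA genes under 1 kb apart gave 174 clusters, of which 58 (33.3%) lay within 1 kb of a peak. The share was 19% for the 105 genes that stood alone, 41.9% for the 43 pairs and 76.9% for the 26 clusters of 3 or more. The highest score near a cluster did not rise in the same way, with medians of 1.595, 1.505 and 1.625 over the clusters near a peak. A cluster spans more bases than 1 gene and has more chances to meet a peak, and this was not corrected for.

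**Figure D1:**
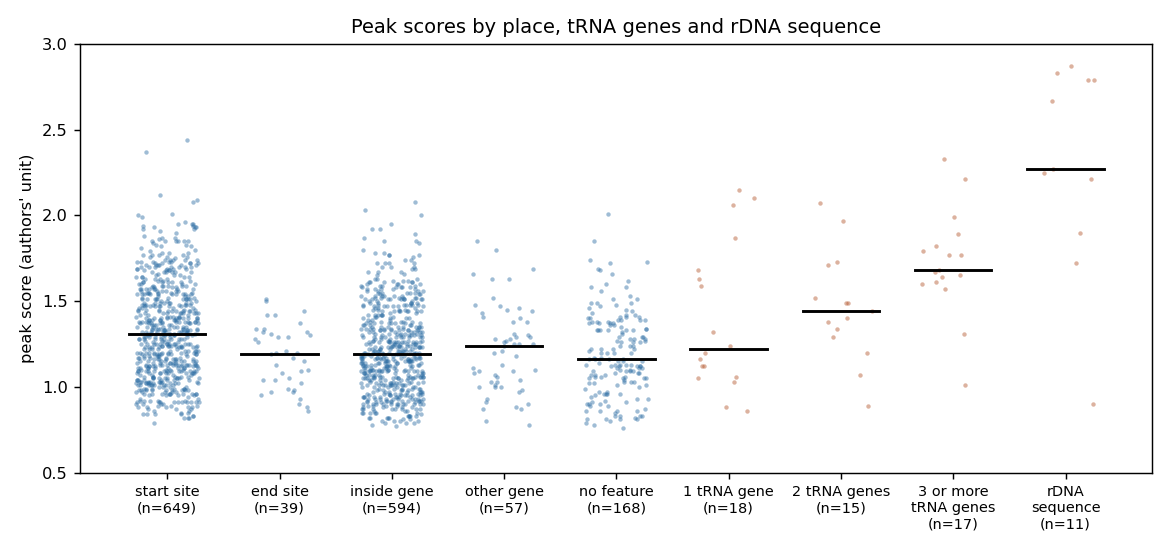
Score of every RNA Pol peak (authors' unit, vertical axis), each point 1 peak and each bar the median of its group. Blue groups place peaks by the protein-coding gene or other annotation beneath them, and orange groups hold peaks on tRNA genes or rDNA sequence, left out of the blue groups. Medians are 1.22, 1.44 and 1.68 for peaks on 1, 2, and 3 or more tRNA genes, 2.27 for rDNA sequence and 1.31 for start sites.

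The highest tRNA score, 2.33, was at the glutamine cluster on chr2L:2008364-2010724, whose peak also holds the start of a protein-coding gene, since it overlaps *Nplp4* and *CG4238*. Next was a peak of 2.21 on chr3L:3095234-3098919, over the Cys-GCA-1 genes and 2 Lys-CTT-1 genes inside the chitinase gene *Cht7*. *tRNA:Thr-AGT-1-4*, inside *CG31279*, had 2.15. A peak of 2.07 on chromosome 2R held *tRNA:Lys-CTT-1-5* and *tRNA:Arg-ACG-1-4* and overlapped no protein-coding gene, and *tRNA:Trp-CCA-2-5*, inside *Pu*, had 2.06. Of the 50 tRNA peaks, 16 also held the start of a protein-coding gene, 19 lay inside one and 12 overlapped none. The 12 had a median score of 1.495. In the others the tRNA genes and the protein-coding gene cannot be told apart.

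Most amino acids were represented. Genes within 1 kb of a peak covered 31 of 44 anticodons and 21 of 22 amino acid classes, the exception being the only selenocysteine tRNA gene. Shares were highest for asparagine (8 of 10), histidine (4 of 5) and phenylalanine (6 of 8), and serine had 13 of 20, alanine 11 of 17 and arginine 16 of 26. They were lowest for aspartate (2 of 14), initiator methionine (1 of 6), proline (3 of 17), threonine (3 of 17) and leucine (5 of 22). Over all 290 tRNA genes the share was 44.8%. Peaks overlapped 4 asparagine, 4 histidine and 6 phenylalanine genes. These genes lie in 5, 3 and 6 clusters, and genes of a cluster can share a peak, so the order rests on few peaks. By arm, 53.1% of the tRNA genes of 2R and 51.9% of those of 3R were within 1 kb of a peak, against 24.4% on 2L. Genes within 1 kb of a peak had a median of 6 GATC sites in the surrounding 2 kb and the others 4.5, a difference that moves with the call and whose part in it was not tested.

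**Figure D2:**
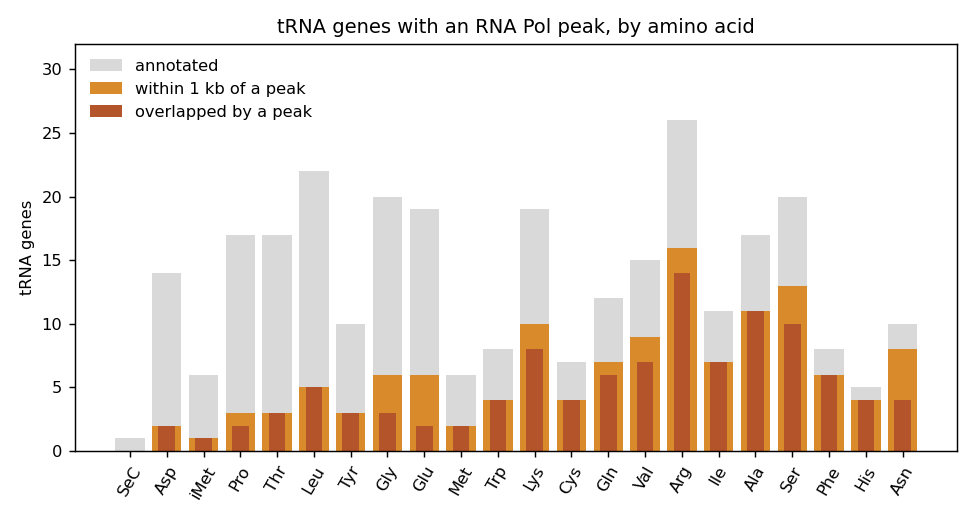
Number of tRNA genes (vertical axis) for each amino acid class (horizontal axis, ordered by the share near a peak): annotated (grey), within 1 kb of an RNA Pol peak (orange) and overlapped by one (dark orange). Asparagine, histidine and phenylalanine stand at 8 of 10, 4 of 5 and 6 of 8, and aspartate at 2 of 14.

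Among the other genes listed as Pol III genes, *snRNA:7SKa* was overlapped by a peak and *RNaseP:RNA* was near one without overlap. The listing was by type of RNA. Which polymerase transcribes *RNaseP:RNA* in flies was not examined, so the peak near it is not read as Pol III. 7SK RNA holds the elongation factor P-TEFb in an inactive complex, and its gene has an external promoter with a proximal sequence element and a TATA box, like those of U6. The sequences show the last 80 bases before the start and the first 10 transcribed for *7SKa*, which had a peak, and for *U6:96Aa* and *7SKb*, which had none. Capitals mark the longest word that *7SKa* and *U6:96Aa* share, 10 bases long and lying 62 to 53 bases before the start in both genes.
snRNA:7SKa (chr3R:7474987-7475076, minus strand): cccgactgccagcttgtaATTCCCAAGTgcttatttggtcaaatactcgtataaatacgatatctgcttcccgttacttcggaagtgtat
snRNA:U6:96Aa (chr3R:24556008-24556097, plus strand): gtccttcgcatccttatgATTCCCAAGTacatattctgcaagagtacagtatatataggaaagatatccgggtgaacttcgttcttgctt
snRNA:7SKb (chr3R:23432789-23432878, plus strand): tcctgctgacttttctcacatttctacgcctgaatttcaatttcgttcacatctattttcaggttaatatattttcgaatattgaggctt

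The *7SKa* peak, chr3R:7474850-7477494 with a score of 2.1, ranked 15 in the list. It held the start of *7SKa*, 33.1% of the gene, and *tRNA:Val-CAC-2-4*, so these Pol III genes share a peak. *RNaseP:RNA*, the RNA of the enzyme that trims tRNA 5′ ends, lay 173 bp from a peak of score 1.35. *snRNA:7SKb* lay 84.5 kb from the nearest peak and *RNaseMRP:RNA* 2.04 kb. The word shared by *7SKa* and *U6:96Aa* was absent from the *7SKb* window. It was chosen as shared, so its presence at *U6:96Aa*, which had no peak, was fixed in advance. No relation between the word and a peak can be read from these genes.

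Several unbound Pol III genes are repeated in the genome, where a short read cannot be placed uniquely. *U6:96Aa*, *U6:96Ab* and *U6:96Ac* lay 7.65, 7.04 and 6.52 kb from the nearest peak, and 42.1% to 43% of their 50-base windows occur once in the assembly. The 7SL genes lay 6.91 and 9.28 kb away, and none of their windows is unique. No peak lay within 1 kb of the 96 5S rRNA genes of 2R, whose span of 36.7 kb is 3.6% unique. *U6atac*, which is fully unique, lay 6.57 kb from a peak. How multiply mapped reads were handled is not given in the sources used here, and the absence of peaks at the repeated genes cannot be told apart from that.

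Peaks with rDNA sequence were the highest in the list. The rDNA unit is transcribed by Pol I, and its copies are only partly assembled on the X chromosome. Taking the annotated unit of 8118 bp, 11 peaks shared its 31-base words, with 29.6% to 78.3% of a peak's words found in the unit. Their scores ran from 0.9 to 2.87 with a median of 2.27, and 8 of them were among the 11 highest ranks of the list. Of the rDNA peaks, 4 lay on no annotated feature, 332948 to 426273 bp from the nearest protein-coding gene, and all 4 matched only 28S rRNA. No rDNA peak shared a word with the external transcribed spacer, and none overlapped a Myc peak.

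The top peak, chrX:23278767-23281886 with a score of 2.87, matched 18S (20.4% of words), the internal spacer (16.8%), 5.8S (3.24%) and 28S (22.6%). The second, chrX:23215891-23217780 with 2.83, matched 28S alone (51.6%). Pseudogenes of 28S rRNA, whose names end in Psi for pseudogene, lay under 6 of the 11. Between 0% and 56.5% of the 50-base windows of these peaks are unique, so which copies of the repeat gave the reads cannot be told apart.

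By RNA class, 2618 of 24166 annotated features (10.8%) lay within 1 kb of a peak and 2005 (8.3%) were overlapped by one. The share within 1 kb was 44.8% of 290 tRNA genes, 17.1% of 269 snoRNA genes, 13.3% of 503 antisense RNAs, 9.61% of 1945 long non-coding RNAs (lncRNAs) and 5.77% of 260 pre-miRNAs. It was 6.25% of 32 snRNA genes, 6.06% of 330 pseudogenes, 3.63% of 5889 transposable element insertions and 2.02% of 99 rRNA genes. Protein-coding genes stood at 13.6% (1896 of 13968) within 1 kb and at 11.1% (1555) overlapped. When only overlap counted, tRNA genes kept 37.2% and snoRNA genes fell to 7.06%, below the share of all features.

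**Figure D3:**
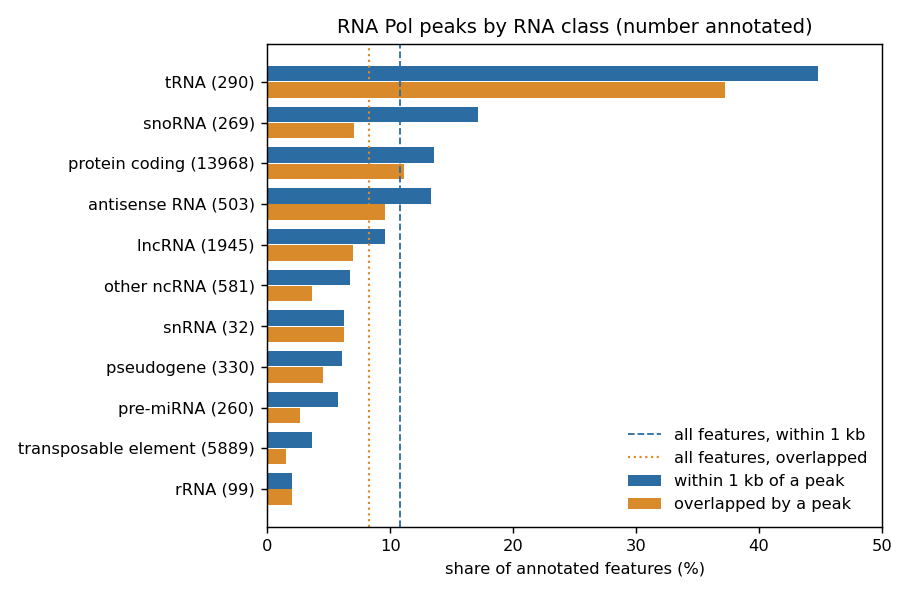
Share of annotated features (%, horizontal axis) of each RNA class within 1 kb of an RNA Pol peak (blue) and overlapped by one (orange), with the number annotated in brackets. Dashed and dotted lines give the same shares over all features, 10.8% and 8.3%. tRNA genes reach 44.8% and 37.2%, and snoRNA genes drop below the dotted line when a peak has to overlap the gene.

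Most snoRNA genes near a peak lay inside other genes. Small nucleolar RNAs guide methylation or pseudouridylation of rRNA and in flies mostly lie in introns. Of the 46 within 1 kb of a peak, 36 lay in 18 protein-coding host genes, and for 26 of the 36 the host's own start was in a peak. Hosts included the ribosomal protein genes *RpS16*, *RpS9*, *RpL15* and *RpL5*, the pseudouridine synthase gene *Nop60B* and the poly(A)-binding protein gene *pAbp*. A further 9 lay in *Uhg1* and *Uhg2*, non-coding genes known as hosts of snoRNAs, whose starts were in peaks of score 1.83 and 1.05. Those peaks also hold the start of a protein-coding gene, *rdgBbeta* for *Uhg1* and *mtDNA-helicase* for *Uhg2*. Host and neighbour cannot be told apart there. The last of the 46 snoRNA genes had no host on its strand. Methylation guides by name had 12 of 77 near a peak and pseudouridine guides 16 of 106.

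Of 260 pre-miRNAs, 7 were overlapped by a peak and 8 more lay within 1 kb of one. The 2.69% overlapped and 5.77% within 1 kb were below the 8.3% and 10.8% of all features. The mature sequences shown are for *bantam*, a known growth regulator, and for 4 of the 7 overlapped, with the seed (bases 2 to 8) in capitals, as RefSeq gives them. Each seed differs from the others.
mir-ban-RA (chr3L:642259-642281): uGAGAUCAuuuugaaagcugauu
mir-282-RA (chr3L:3251038-3251061): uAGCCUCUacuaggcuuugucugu
mir-9a-RA (chr3L:19565140-19565162): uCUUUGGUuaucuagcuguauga
mir-279-RA (chr3R:29215651-29215672): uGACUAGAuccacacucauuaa
mir-276a-RB (chr3L:10365281-10365302): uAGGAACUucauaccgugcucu

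*mir-282* had the highest score of the class, 1.8, in a peak that covers 86.1% of its host *lncRNA:CR43626*. *mir-9a*, which limits the number of sensory organ precursors on the wing margin, had 1.46, *mir-9377* 1.44, *mir-8* 1.28, *mir-279* 1.26, *mir-276a* 1.21 and *mir-954* 1.09. *mir-ban*, the growth-promoting *bantam* microRNA, was not overlapped. The nearest peak lay 231 bp before its hairpin and had a score of 1.4. Of the 7 overlapped, 5 lay in peaks that overlap no protein-coding gene.

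Most lncRNA peaks were shared with protein-coding genes. A peak overlapped 136 of the 1945 lncRNAs (6.99%), below the 8.3% of all features. Of these 136, 47 were overlapped by peaks that lie off protein-coding genes. The highest scores were *lncRNA:CR44974* (2.03), which lies inside the cyclin gene *CycE*, and *lncRNA:CR45939* (1.96), whose start shares a peak with *ftz-f1*. The antisense RNA *asRNA:CR45026* lay in a peak of 2.44 that it shares with the Wee1-family kinase gene *Myt1*, *Pmi* and *PGRP-LD*. The highest among lncRNAs off protein-coding genes were *lncRNA:CR44676* and *lncRNA:CR44677*, in the same peak of 1.85. Of 32 snRNA genes, only *snRNA:U1:95Ca*, with 1.21, joined *7SKa*, and 25.6% of its windows are unique. Among transposable elements, INE-1 gave 40 of the 92 insertions overlapped, out of 2235 annotated. That is 1.79% of its insertions, close to the 1.56% of all transposable elements and below the 8.3% of all features.

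Peaks favoured the starts of protein-coding genes. A gene's start site was defined by its most upstream annotated base, and each peak was placed once. Of 1568 peaks, 665 (42.4%) held a start, 42 (2.68%) held an end without a start, 613 (39.1%) lay inside a gene and 76 (4.85%) overlapped only another kind of gene. The remaining 172 (11%) overlapped no annotated feature. Median scores were 1.31 at starts, 1.18 at ends, 1.2 inside genes and 1.16 on no feature. With the peaks in 5 groups of rising score, 31.5% of the lowest group held a start and 57.3% of the highest. Median width was 1344.5 bp in the lowest group and 1977.5 bp in the highest. A wider peak has more chances to hold a start, and this was not corrected for. Of the 613 inside genes, 152 held the start of another annotated transcript, as did 3 of the 42 at ends, and with these 820 peaks (52.3%) held a start of some transcript.

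Seen from the genes, 959 of 13968 starts (6.87%) and 242 ends (1.73%) lay in a peak. Of the 1555 genes overlapped by a peak, 61.7% had the start in it, 15.6% the end and 68 genes both, and 422 had neither. Counting any annotated transcript start raised 61.7% to 71.1%. In genes of 5 to 15 kb, 3.81% had a peak 2 kb before the start, 12.7% at the start and 4.56% at 2 kb after it. Before the end the share was low, with 0.424% of these genes having a peak 1 kb before it and 1.88% at the end itself. Genes of 15 kb and longer kept 6% at 2 kb after the start and 2.85% at 5 kb, and fell to 0.219% at 1 kb before the end. These values near the end lie below the 2.33% of bases that peaks cover, and 1 kb beyond the end the shares were 3.11% and 2.56%.

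**Figure D4:**
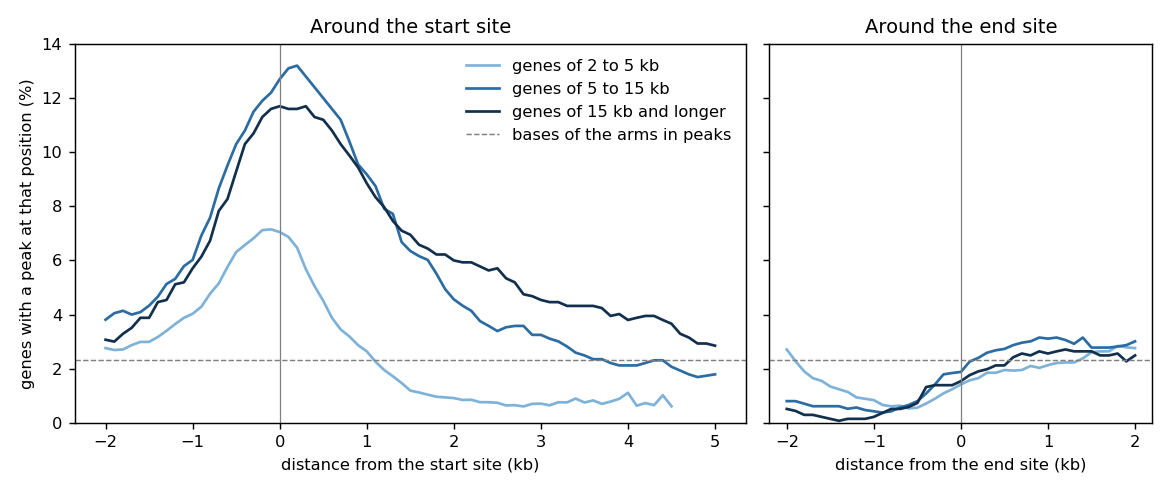
Share of protein-coding genes with an RNA Pol peak (%, vertical axis) at each distance in kb from the start (left) and the end (right), in 100 bp steps, for 3 length classes. The dashed line is the 2.33% of bases in peaks. The start reaches 7.05% for genes of 2 to 5 kb, 12.7% for 5 to 15 kb and 11.7% for 15 kb and longer, and every class dips below the line before the end.

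With each gene of 5 to 15 kb cut into 10 equal segments, the first segment was 12.2% covered, the 9th 0.611% and the last 1.15%. Around the 400 peaks with a single start, a median of 746 bp lay upstream and 949 bp downstream, and 236 (59%) reached farther downstream. By bases, 51.9% of the peaks was intron, 14.8% non-coding exon of protein-coding genes and 6.26% coding exon, where the arms hold 42.1%, 8.03% and 17.1%. Coding exon was thus a smaller share of the peaks than of the arms, and non-coding exon a larger one.

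Paired starts were common. Of the 665 peaks at starts, 265 (39.8%) held 2 or more, and 209 of the 238 with exactly 2 held a divergent pair, a median of 347 bp apart. A divergent neighbour within 1 kb was present for 33.3% of all protein-coding genes and for 52.6% of those with a start in a peak. Of the genes in such a pair, 10.8% had the start in a peak, and of the others 4.88%. A wider reach for pairs is built in, because any peak on such a promoter counts for both genes. Where a peak covers both starts, the data do not say which of the genes was transcribed.

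The stretches between divergent starts are shown for selected high-scoring peaks, as the plus strand of RefSeq. Capitals mark matches to TATCGATA, the DNA replication-related element (DRE) that DREF binds. TATAAA was searched on the transcribed strand, and TATCGATA, CACGTG and GAGAG on both strands.
Blm and CG14722 (chr3R:11741783-11741890): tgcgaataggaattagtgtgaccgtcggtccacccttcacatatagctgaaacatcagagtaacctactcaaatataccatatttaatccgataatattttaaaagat
CG7130 and RpLP0 (chr3L:22075756-22075867): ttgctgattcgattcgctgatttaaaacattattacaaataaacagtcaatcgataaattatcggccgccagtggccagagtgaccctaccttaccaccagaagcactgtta
CdGAPr and CG10466 (chr2L:19791882-19792104): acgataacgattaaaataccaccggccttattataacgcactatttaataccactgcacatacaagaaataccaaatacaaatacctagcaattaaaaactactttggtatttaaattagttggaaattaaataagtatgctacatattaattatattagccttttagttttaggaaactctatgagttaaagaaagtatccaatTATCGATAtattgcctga
Atac3 and Ptpmeg (chr3L:327992-328097): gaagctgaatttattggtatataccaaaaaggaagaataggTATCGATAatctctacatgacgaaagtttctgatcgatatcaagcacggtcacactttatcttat

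*Blm* and *CG14722* start 107 bp apart under a peak of 2.12, and *CG7130* and *RpLP0* 111 bp apart under one of 1.95. *Atac3* and *Ptpmeg* (105 bp apart) had 1.72, and *CdGAPr* and *CG10466* (222 bp apart) 1.77. The *Blm* and *RpLP0* pairs, at ranks 14 and 30, were shown for their scores and hold no DRE. The *CdGAPr* and *Atac3* pairs, at ranks 82 and 111, were picked because they hold one. The pairs shown thus do not tell how often divergent promoters hold the DRE. Blm is a DNA helicase and RpLP0 a protein of the ribosomal stalk. Over the promoters, from 250 bp before to 50 bp after the start, the DRE was found in 14.2% of the 959 genes with the start in a peak and in 9.36% of all protein-coding genes. TATAAA ran the other way, with 26.3% and 32.1%, and within 40 to 16 bp before the start it was found in 2.5% and 7.72%.

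The promoter letters differed with the pairing of starts. Among starts in a peak with no divergent neighbour within 1 kb, 18.9% held TATAAA, 42.6% GAGAG and 9.01% the DRE, against 31.7%, 33.2% and 5.82% of all such genes. In divergent pairs, TATAAA stood at 32.9% against 33%, GAGAG at 20.2% against 22.6% and the DRE at 18.8% against 16.5%. The E-box CACGTG, a site of Myc and its partner Max, was found in 3.75% of starts in peaks and 4.2% of all starts. The AT content of these windows was a median of 62.7% and 62%, so base composition differed little between the sets. A match is a run of letters and not a site in use.

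Longer genes carried peaks more often. In 5 equal groups of protein-coding genes by length, 5.94% of the shortest lay within 1 kb of a peak, then 8.23%, 9.81% and 14%, and 29.9% of the longest (6.47 kb and over). A longer gene spans more bases and has more chances to meet a peak, and this was not corrected for. The share with a start in a peak rose less, from 3.04% to 12.7%. Of the overlapped genes in the longest group, 47.5% had neither start nor end in a peak, compared with 0.952% in the shortest. By density of GATC sites, the share within 1 kb was between 11.7% and 15.6% in all 5 groups, lowest in the sparsest and the densest. By arm, peaks numbered 10.5 to 13.3 per Mb, and chromosome 4 had the highest share of genes within 1 kb (18 of 80, 22.5%). No peak lay on the Y chromosome, of which 19% of windows are unique, and the larvae were female.

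Gene groups are described by the share within 1 kb of a peak beside the 13.6% of all protein-coding genes and the share of genes of like length. Of 17 groups, 14 lay above 13.6%, but the share over all genes itself moves with length, from 5.94% in the shortest to 29.9% in the longest. Among growth and housekeeping genes, glycolysis had 4 of 12, the RNA polymerase subunits 9 of 30, cytoplasmic ribosomal proteins 23 of 92 and heat shock genes 4 of 18. Mitochondrial ribosomal proteins had 13 of 73, the respiratory chain and ATP synthase 14 of 80 and the core proteasome 4 of 25. From glycolysis to the proteasome, median lengths were 0.909 to 3.86 kb, where genes of like length stood at 5.94% to 14%. Aminoacyl-tRNA synthetases (2 of 33, *AlaRS* and *HisRS*) and larval cuticle proteins (6 of 110) were below 13.6%. Genes of like length stood at 9.81% for the synthetases (median 2.76 kb) and 5.94% for cuticle genes (median 1.01 kb). The 5.45% of cuticle genes is thus near the share for their length. The *HisRS* peak also holds the start of *Bx*. No member of the 111 replication-dependent histone genes was near a peak, but their cluster of 125 kb is 1.44% unique, so this says nothing about transcription there. *His4r*, a histone gene outside the cluster, had its start in a peak of 1.17.

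**Figure D5:**
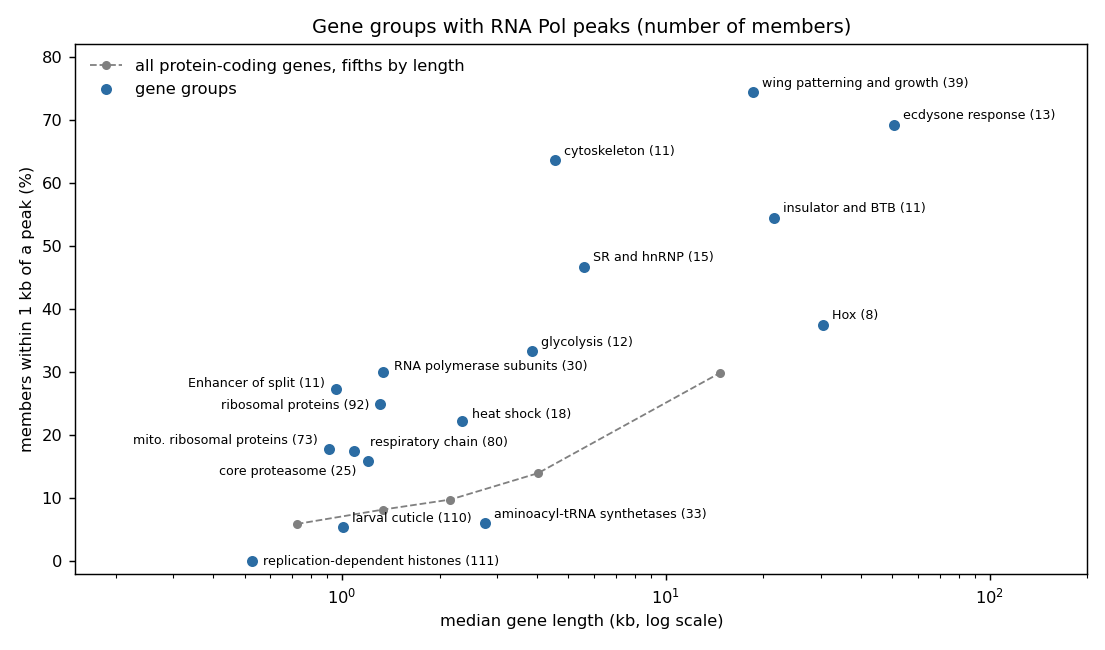
Share of each gene group within 1 kb of an RNA Pol peak (%, vertical axis) against the median gene length of the group (kb, log scale), with the number of members in brackets. Grey points join all protein-coding genes in 5 equal groups by length, at their median lengths. Wing patterning and growth genes reach 74.4%, and cuticle genes (5.45%) and synthetases (6.06%) lie below 13.6%.

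Within the ribosomal protein group, *RpLP0* (1.95), *RpL39* (1.85), *RpL7A* (1.78) and *RpL5* (1.62) had the highest scores. The 1.85 of *RpL39* belongs to a peak at its neighbour *Rap2l*, and the peak on *RpL39* itself had 0.88. Of the 23, 12 had the start in a peak. *RpL10* was covered along 97.8% of its 2.28 kb by a single peak of 1.14. Among mitochondrial ribosomal proteins, *mRpL22* had 2.37, the 7th rank of the list, in a peak of 591 bp at its start, followed by *mRpL17* (1.81, from a peak on its neighbour *Tudor-SN*), *mRpS10* (1.73) and *mRpL55* (1.71).

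For the polymerase subunits, *Polr2I* had 2.01 in a peak that also holds the start of *su(Hw)*, *Polr2L* 1.53 (not overlapped), *Polr3F* 1.44 and *Polr1C* 1.32. Of the 9 near a peak, 5 were overlapped. The gene of the fusion protein, *Polr2F*, was 7.11 kb from the nearest peak. *COX8* of cytochrome oxidase had 1.85, *ATPsynD* 1.71, *ND-75* 1.67 and *ATPsyndelta* 1.6. In glycolysis, the 4 of 12 near a peak were *Ald1* (1.7), *Pgk* (1.54), *PyK* (1.44) and *Eno* (1.33). *PyK* and *Polr3F* share a peak, as do *ATPsynD* and *mRpL55*, and *Pgk* and *Bacc*. The heat shock genes near a peak were the constitutive chaperone genes *Hsc70-4* (1.61) and *Hsp83* (1.16, not overlapped), the activator gene *Hsf* (1.59) and the co-chaperone gene *DnaJ-1* (1.44), and none of the inducible *Hsp70* genes was among them. The share of unique windows at the *Hsp70* genes is not given here, so the lack of peaks there does not speak to transcription.

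Cytoskeleton genes had 7 of 11 near a peak, at a median length of 4.54 kb, where genes of like length stood at 14%. They were the cofilin gene *tsr* (1.74), the moesin gene *Moe* (1.7), *Act42A* (1.48), the myosin heavy chain gene *zip* (1.38), *alphaTub84B*, *Act5C* and *chic*. At *tsr* the peak ran from -0.832 to 1.75 kb relative to the start and covered 74.5% of the gene. *Moe* has peaks of 1.7 and 1.16 that begin 5.85 and 3.12 kb after its outermost start, each at another annotated transcript start. The same was true of *Act5C*, whose peak of 1.29 began 0.294 kb after the outermost start and held 1 of its 2 transcript starts.

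Genes of wing patterning and growth had the highest share of the groups, 29 of 39 (74.4%), at a median length of 18.5 kb, where genes of the longest group stood at 29.9%. Of the 29, 13 had the start in a peak and 3 the end. The highest scores were *CycE* (2.03), which drives entry to S phase, *brk* (1.63), the repressor of Dpp targets, and the Hippo pathway genes *ex* (1.61) and *kibra* (1.61). *CycE* has peaks of 2.03 and 1.56, at 1.44 to 3.4 kb and 3.44 to 5.18 kb from its outermost start, and the stronger holds another transcript start. At *brk* the peak ran from -2.98 to 0.032 kb relative to the start, almost wholly upstream. *ex* has 4 peaks over 49% of its length, with 1.61 for a peak of 5713 bp at 6.16 to 11.9 kb and 1.14 for the peak at the start.

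The selector genes differed in where the peaks lay. *sd*, whose enhancer drives the GAL4, has a peak of 1.55 at 0.611 to 4.09 kb and one of 1.51 at 6.46 to 11.3 kb, and these hold 5 of its 7 transcript starts. *vg*, which encodes the partner of Sd, has peaks of 1.12, 1.48 and 1.32, the last at 14.6 to 15.8 kb over the end of the gene, and none holds a start. *nub* has peaks of 1.35 at the start and 1.16 in an intron, and *tsh* one of 1.08 at the start. *hth* has 3 peaks of 0.91 to 1.06 inside its 132 kb, none at a start. *Notch* (*N*) has 6 peaks of 1 to 1.58 along 37.4 kb, of which 5 are in the body, 1 reaches past the end and none is at the start.

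*Myc* has a single peak, chrX:3372920-3375025 with 1.32, from -0.239 to 1.87 kb relative to the start, and 65.1% of its part within the gene is intron. *Psi* has a peak of 1.69 from -0.797 to 0.772 kb relative to its start. That peak also holds the start of *eEF1beta*, an elongation factor gene, and *Psi* and *eEF1beta* cannot be told apart. Neither *Myc* nor *Psi* had a peak farther along.

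Ecdysone response genes had 9 of 13 near a peak, at a median length of 50.7 kb, where genes of the longest group stood at 29.9%. *EcR*, the ecdysone receptor gene, had 8 peaks, the most of any protein-coding gene, with scores of 1.15 to 1.6 over 22.7% of its 81.2 kb. Of these, 1 holds 2 of its transcript starts and the others hold none. tRNA genes lie under 4 of the 8, and there *EcR* and the tRNA genes cannot be told apart. *Eip78C* had 2, *ftz-f1* 1.96 at its start, *Hr4* 1.78 and *Eip74EF* 1.69. The *Eip78C* peak lies 24.3 to 27.2 kb from the start, is entirely intronic and overlaps 2 insertions of the 412 retrotransposon. *br* and *Mur2B* lie on opposite strands and the 5 peaks of *br* are also 5 of the 6 of *Mur2B*, so those peaks cannot be given to either gene.

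Insulator and BTB genes had 6 of 11, among them *su(Hw)* (2.01, start), *lola* (1.56), *psq* (1.55) and *ttk* (1.21). SR and hnRNP genes had 7 of 15, with *Hrb98DE* (1.73), *Psi* (1.69), *Syp* (1.69) and *mub* (1.52) highest. Genes of like length stood at 29.9% for insulator and BTB genes (median 21.5 kb) and 14% for SR and hnRNP genes (median 5.58 kb). Of the Hox genes, *Antp* (1.72), *Ubx* (1.67) and *lab* (0.93) were near a peak and 5 were not. The Hox share of 37.5%, at a median length of 30.6 kb, was near the 29.9% of the longest genes. *Antp*, active in the segment of the wing, has 1.72 at 4.74 to 7.6 kb and 1.13 at the start, and *Ubx* a peak of 848 bp in its intron. The *Ubx* peak also holds the start of the antisense RNA *asRNA:PS4*, and *Ubx* and *asRNA:PS4* cannot be told apart. Of 11 Enhancer of split genes, 3 were near a peak and none had a start in one. Their median length was 0.957 kb, where genes of like length stood at 5.94%. *E(spl)m3-HLH* and *E(spl)m4-BFM* share a peak of 1.42 at their ends. *Cpr31A* (1.37), the highest cuticle gene, is near a peak in *Pen* and not overlapped.

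Very long genes carried peaks that covered little of them. The longest near a peak was *kirre* (394 kb), with 4 peaks of 0.82 to 1.95, all intronic and over 1.57% of the gene, 223 to 308 kb from its outermost start. *Ten-a* (292 kb) has peaks of 1.1 and 1.37 over 2.21%, *pum* (171 kb) one of 1.19 at an internal transcript start, *heph* (169 kb) 3 of 1.06 to 1.26, and *dnc* (167 kb) is near a peak of 0.9 without overlap. At the other extreme, among genes of at least 2 kb, *RpL10* (97.8%), *Bacc* (96.9%), *CG46466* (93%), *galectin* (80.7%) and *peg* (79.5%) were the most covered. Of 1407 genes of at least 2 kb within 1 kb of a peak, 1045 were overlapped by 1 peak, 126 by 2 and 35 by 3.

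The widest peaks lay inside *gukh* (9756 bp, score 1.37), at *Sin3A* and *Amph* (9280 bp, 1.57), on no annotated feature of 2R (7095 bp, 1.4), inside *RhoU* (6519 bp, 1.42) and at *B4* and *kuz* (6073 bp, 1.22). The widest peaks were thus not the highest in score. Over the whole list, median width rose from 1344.5 bp in the lowest of the 5 score groups to 1977.5 bp in the highest. Among the 20 highest-scoring peaks, those on protein-coding genes without tRNA or rDNA were at *Myt1*, *Pmi* and *PGRP-LD* (2.44), *mRpL22* (2.37), *Blm* and *CG14722* (2.12), *wal* and *CG13197* (2.09), *CG8272* and *DCTN2-p50* (2.08) and *skd* (2.08). Myt1 inhibits the mitotic kinase Cdk1, wal is a subunit of the electron transfer flavoprotein, DCTN2-p50 belongs to dynactin and skd is the Mediator subunit Med13. All but *skd* held a start.

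Of the 172 peaks on no annotated feature, 124 had none within 1 kb, and the median distance to the nearest protein-coding gene was 4.77 kb. They lay over 5 kb away in 84 and over 20 kb away in 15. Leaving aside rDNA sequence, the highest was chr3L:19561509-19562596, with 2.01, 4255 bp from a protein-coding gene and near the *mir-9a* region. Neighbouring peaks on an arm were a median of 34271.5 bp apart, and 200 peaks had a neighbour less than 1 kb away.

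Myc, a driver of ribosome production, was profiled with Dam-only samples of its own. Of the 1568 RNA Pol peaks, 788 (50.3%) shared at least 1 bp with a Myc peak, and 773 of the 1951 Myc peaks (39.6%) did so with an RNA Pol peak. The share was 54.1% for peaks at starts, 48.5% inside genes, 42.9% at ends and 48.3% on no feature. It rose from 44.9% in the lowest of 5 score groups to 57.6% in the highest. Peaks of the highest group were also wider than those of the lowest, which was not corrected for. tRNA peaks stood apart, with 6 of 50 (12%) overlapping a Myc peak against 51.5% of the 1518 others. These shares describe the lists of 2 fusions called on averages, and no test was made of them.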

How the data were processed

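Pol-Dam, Myc-Dam and Dam-only samples of wing discs were grouped by their titles. The description label, which calls the Pol-Dam samples Myc RNAi and the Psi-Dam samples control, conflicts with the titles and was not used. Per the study's methods, the authors aligned reads to BDGP6 with Bowtie2 through damidseq_pipeline, normalised each fusion to its Dam-only control on a log2 scale, and averaged replicates before find_peaks was run with an FDR limit of 1%. Tool versions were not given in the sources used here. Read depth is unknown. The deposited lists give the score and the FDR (a q-value) that the authors' peak caller assigned. How the score is computed was not stated, so scores only rank peaks within a list.

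Peaks were joined to Ensembl release 115 gene models and to RefSeq release 6 sequence, which has the same coordinates. A feature within 1 kb of a peak was counted as near it, as in the study, and overlap was counted separately. Windows of 50 bases occurring once in the assembly gave the share called unique. Peaks, genes and lists were chosen with earlier results of these data known, and nothing here is a test. Only counts, shares, medians and ranges are given, beside the same over all features. The genes named are those at the 20 highest-scoring peaks, up to 5 per RNA class and up to 4 per gene group. Added to these were every snRNA gene and every other gene listed as Pol III, outside tRNA, near a peak. The widest peaks, the 5 most covered and 5 longest genes, *Polr2F*, *Psi*, *Myc*, *sd* and the bound cell type markers were named too. Other genes, such as the hosts of snoRNAs, the genes with most peaks, *mir-ban* and the divergent pairs, were chosen after their values were seen. *Dl* and *Hsp67Bb* were not matched by symbol and were not analysed here. Overlap with the Psi list was left out, since it shares Dam-only sample 1. Joins were tested on simulated data. Python 3.11.15, numpy 2.4.6, pandas 2.3.3, scipy 1.17.1 and matplotlib 3.10.9 were used. Alternatives were other distances, an FDR of 0.1%, other definitions of start sites, merged peaks, tRNA clusters and annotation without transposable elements and pseudogenes.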

Additional observations from a re-analysis of the deposited data

How the results depend on the processing

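Of 26 alternative settings for the main counts and shares, 18 moved the value by less than 1.5 times for counts, or by less than the 95% binomial interval of a share, and none was tested. Peaks at an FDR of 0.1% left 1241 protein-coding genes within 1 kb, against 1896. Counting tRNA genes as clusters gave 58 clusters near a peak, against 130 genes. Among genes of at least 2 kb within 1 kb of a peak, the start lay in the peak in 50.3%. This share was 60.5% with the start of any annotated transcript, 60.3% with a start within 500 bp of the peak and 44.7% in genes of at least 5 kb. Peaks at a start were 42.4%, and 52.3% with any transcript start. The overlap with Myc peaks of 50.3% was 39.6% when 50% of the RNA Pol peak had to be covered and 41.4% with both lists at an FDR of 0.1%.

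For single gene groups, 27 of 32 alternatives kept the count within 1.5 times. With overlap required, RNA polymerase subunits went from 9 to 5, the core proteasome from 4 to 2 and larval cuticle from 6 to 3. At an FDR of 0.1%, heat shock went from 4 to 2 and mitochondrial ribosomal proteins from 13 to 7. Leaving out peaks of mainly repeated sequence, chosen after seeing the data, kept 130 tRNA genes, 2605 features and 42.7% of peaks at a start. No paired analysis was possible because the list is an average with no column for each replicate, and for the same reason no replicate could be left out. Depth, and what lies below the FDR, cannot be read from the list.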
